A study of Mus musculus with 9 samples.

Results

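The 9 genes described here, Egr1, Egr2, Egr3, Nr4a1, Nr4a2, Nr4a3, Ier2, Ier5 and Nab2, are induced rapidly when a lymphocyte is activated. All probe sets annotated to them were taken, 20 of the 45101 on the array, and the 9 genes stand among 18193 genes that have a probe set with a single gene symbol. They were followed in germinal center B cells sorted from the spleens of 10-week-old mice immunised with sheep red blood cells and collected on day 12. The sort took B220hi, PNAhi and CD95hi cells, so it selected on Fas (CD95) protein.

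There were 3 arrays for each of 3 genotypes. KO mice were FOXO1f/f, Cg1-Cre (both Foxo1 alleles floxed), HET mice were FOXO1f/+, Cg1-Cre, and WT mice were FOXO1+/+, Cg1-Cre, so all 3 groups carried the same Cre, which is expressed from the immunoglobulin gamma 1 locus in B cells activated by T cell-dependent antigen. Cells in which Cre did not act keep an intact allele and would still be in the sort. The array labels describe a single animal per array, while the design text speaks of pools of splenic cells, and the arrays are taken here as separate samples. RNA was amplified linearly before labelling. Foxo1, the targeted gene, was at 19.0% of its WT level in KO cells and at 65.4% in HET cells on its brighter probe set. The 3' to 5' signal ratios of Actb and Gapdh did not separate KO from WT (exact permutation p = 0.70 and 0.30, two-sided, where 3 against 3 arrays cannot go below 0.10). The array medians lay between 47.4 and 48.0 signal units in KO, between 44.0 and 45.0 in HET and between 42.9 and 44.8 in WT.

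EGR1, EGR2 and EGR3 are zinc finger transcription factors that bind GC-rich sites. They are switched on within minutes of receptor signaling through ERK, ternary complex factors and SRF. NR4A1, NR4A2 and NR4A3 are orphan nuclear receptors that follow calcium and antigen receptor signals, and Nr4a1 is used as a reporter of such signals in lymphocytes. NAB2 binds EGR proteins and represses their targets, IER2 is a nuclear protein of the early response, and IER5 is an early response protein reported to act on the heat shock factor HSF1. In germinal centers such genes are read as marks of cells that have recently received antigen or T cell help.

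Promoter sequence from RefSeq (GRCm38.p6) was matched to 6 of the 9 genes, Egr2, Nr4a1, Nr4a2, Nr4a3, Ier5 and Nab2. The windows below cover 250 bases before the start. They are shown for both genes with the best-supported change in the KO arrays, Egr2 and Ier5, and for 2 of the NR4A genes, whose signals did not change detectably. Capitals mark a CArG box (the site bound by SRF), the cAMP response element core TGACG on either strand, or the EGR site form GCGGGGGCG on either strand. Where a gene had several starts, the window with the most matches is printed.
Egr2, chr10:67537619-67537868, + strand: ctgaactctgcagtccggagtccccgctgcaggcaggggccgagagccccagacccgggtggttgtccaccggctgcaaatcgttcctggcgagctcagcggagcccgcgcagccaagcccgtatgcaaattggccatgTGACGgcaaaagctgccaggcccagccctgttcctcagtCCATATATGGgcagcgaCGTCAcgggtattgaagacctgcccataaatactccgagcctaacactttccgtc
Ier5, chr1:155099637-155099886, - strand: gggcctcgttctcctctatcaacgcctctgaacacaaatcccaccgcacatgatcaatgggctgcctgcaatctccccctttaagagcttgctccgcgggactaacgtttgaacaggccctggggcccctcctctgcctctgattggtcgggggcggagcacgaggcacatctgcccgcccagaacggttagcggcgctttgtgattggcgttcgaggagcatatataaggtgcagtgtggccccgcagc
Nr4a1, chr15:101266596-101266845, + strand: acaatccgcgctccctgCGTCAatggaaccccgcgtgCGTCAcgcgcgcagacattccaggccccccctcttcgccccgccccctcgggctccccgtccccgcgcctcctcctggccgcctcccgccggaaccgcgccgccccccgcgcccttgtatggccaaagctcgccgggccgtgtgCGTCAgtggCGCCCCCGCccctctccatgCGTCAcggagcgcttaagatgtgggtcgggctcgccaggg
Nr4a3, chr4:48045055-48045304, + strand: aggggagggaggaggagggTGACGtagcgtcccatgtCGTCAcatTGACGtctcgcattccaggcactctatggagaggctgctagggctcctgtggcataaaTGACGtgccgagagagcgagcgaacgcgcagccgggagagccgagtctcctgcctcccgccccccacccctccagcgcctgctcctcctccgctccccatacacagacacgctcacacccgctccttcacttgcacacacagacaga

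The Egr2 window holds the CArG box CCATATATGG, lying 72 to 63 bases before the start, and 2 TGACG cores. The 5 Egr2 windows hold 2 different CArG boxes, this one, which 3 overlapping windows share, and CCTTTTTTGG in another window. A CArG box occurs in 1.47% of the 32851 promoter windows of the same length, and the TGACG core in 17.8%. Nr4a1 has 4 cores and the only GCGGGGGCG match among the members, a form found in 2.57% of windows. Nr4a3 and Nr4a2 have 4 cores each. The Ier5 and Nab2 windows hold none of the letters searched. The full cAMP response element TGACGTCA (1.55% of windows, and containing the core on both strands), the EGR site GCGTGGGCG (0.536%), the NR4A monomer site AAAGGTCA (1.34%) and the forkhead site GTAAACA (3.17%) matched no member window. Both strands were searched. These matches describe letters and not binding, and their part in the signals was not tested.

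The comparison of KO with WT cells asks which of these genes differ when both Foxo1 alleles are floxed. Egr2 was lower in KO cells, and Ier5 and Egr1 were higher. Signals are MAS5 signals on a linear scale, differences are on the log2(signal + 2.09) scale, and a gene is called where limma's Benjamini-Hochberg adjusted p over all genes tested is below 0.05. Of the 9 genes, 8 passed the filter on low signals (at least 3 of the 9 arrays at or above the array's median) and were tested. Of these 8, 2 were called higher and 1 lower in KO than in WT, and 5 did not pass. Over all 10331 genes tested, 11.9% were called, 6.09% higher and 5.85% lower, and with only 8 members tested, 3 calls are few to set against that share. Centring the arrays on their own medians gave 398 genes higher and 1683 lower, and of the members 1 higher (Ier5) and 1 lower (Egr2). The median difference of the 8 was 0.16, against 0.011 over all genes. In bulk cells, a difference in the share of cells that express a gene cannot be told apart from a difference in RNA per cell.

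**Figure D1:**
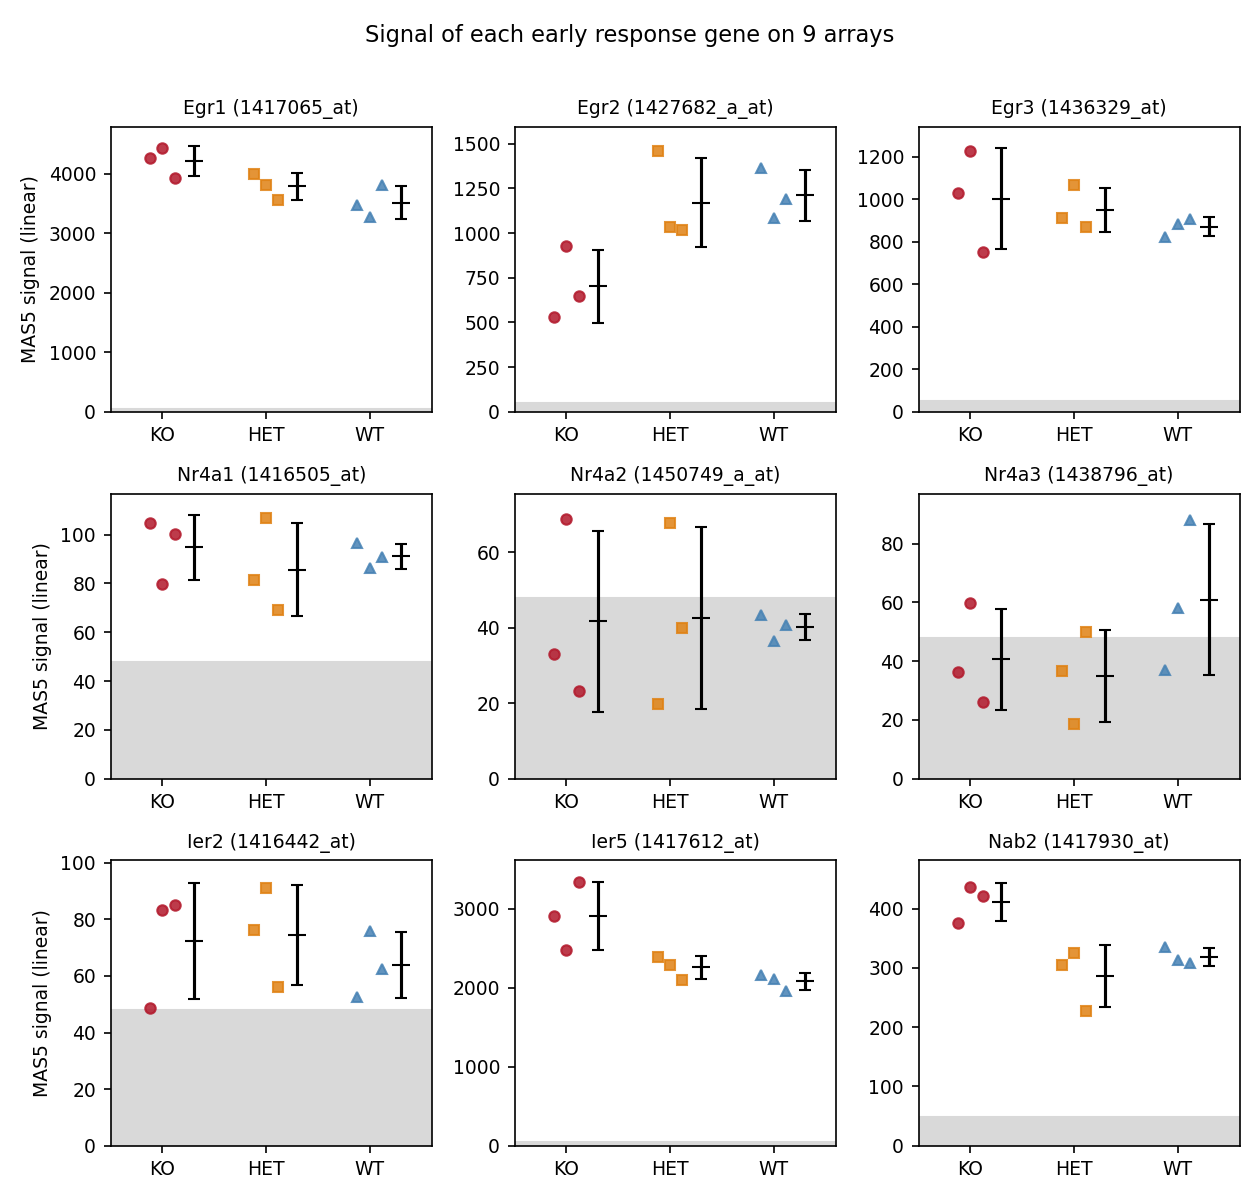
MAS5 signal (linear, y axis from 0) of the brightest probe set of each of the 9 genes on every array, with KO left, HET in the middle and WT right, black bars for the mean ± SD of 3 arrays, and grey up to the highest array median. The Egr2 values of KO lie below all others, at 530.4 to 925 against 1082 to 1364 in WT, and the Ier5 values of KO lie above all others, at 2480 to 3338 against 1965 to 2166 in WT.

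Egr2, which in lymphocytes is known for restraining activation, had signals of 530.4, 925 and 649 on the KO arrays, 1458, 1036 and 1019 on the HET arrays, and 1364, 1082 and 1189 on the WT arrays (probe set 1427682_a_at). All 3 KO arrays lay below all 6 others. The KO mean was 57.9% of the WT mean. The log2 difference of KO from WT was -0.82 with SE 0.19 (95% interval -1.22 to -0.42, adjusted p = 0.0125). The second Egr2 probe set, 1427683_at, gave 459, 663 and 577 in KO, 1242, 934 and 889 in HET, and 1035, 973 and 1141 in WT. Again no KO array reached any HET or WT array, and the log2 difference was -0.90 with SE 0.15 (adjusted p = 0.00316 in the fit over all 23344 kept probe sets). The suffix of the first probe set marks one that can bind several transcripts of a gene, and the second has no such suffix. Egr2 in KO against WT lost its call in 1 of 23 alternative settings, the fit without a variance trend (adjusted p = 0.0547).

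Ier5 had the lowest adjusted p of the members in KO against WT, and was higher in KO. Its brightest probe set, 1417612_at, gave 2914, 2480 and 3338 in KO, 2393, 2285 and 2102 in HET, and 2166, 2114 and 1965 in WT. All 3 KO arrays lay above all 6 others. The log2 difference of KO from WT was 0.47 with SE 0.096 (adjusted p = 0.00673), a 1.39-fold higher signal. Probe set 1460009_at gave 231, 254 and 258 in KO, 194, 121 and 115 in HET, and 114, 130.0 and 152 in WT, and its log2 difference was 0.91 with SE 0.20 (adjusted p = 0.0179 over all kept probe sets). The size therefore differed between the 2 kept probe sets while the direction was shared, and the third, 1417613_at, was under the median of every one of the 9 arrays. The Ier5 call was kept in all 23 alternative settings, with log2 differences of 0.35 to 0.69.

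Egr1, the best-known member of the family and a factor induced through ERK and SRF, gave 4258, 4429 and 3932 in KO, 3988, 3816 and 3550 in HET, and 3464, 3266 and 3809 in WT. The KO arrays lay above all WT arrays, and the lowest KO array lay below the highest HET array. The log2 difference of KO from WT was 0.26 with SE 0.071 (adjusted p = 0.0331), a 1.20-fold higher signal. The call was lost in 7 of 23 settings. Leaving out KO array 1, KO array 2, WT array 1 or WT array 2 gave adjusted p values of 0.0889, 0.115, 0.0867 and 0.134, and centring each array on its median gave a log2 difference of 0.14 (adjusted p = 0.225). All KO arrays also had higher medians than all WT arrays, as given above.

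Egr3, which acts with Egr2 in restraining lymphocytes, gave 1029, 1229 and 753 in KO, 913, 1066 and 869 in HET, and 822, 884 and 907 in WT. The groups overlapped, and the log2 difference of KO from WT was 0.18 (95% interval -0.14 to 0.49, adjusted p = 0.496). Its other probe set, 1421486_at, reached the array median on 2 arrays, and was not tested. Egr1, Egr2 and Egr3 thus gave values of 0.26, -0.82 and 0.18 in the same comparison.

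Nab2, the EGR corepressor, gave 375, 437 and 422 in KO, 305, 326 and 227 in HET, and 336, 313 and 308 in WT. All KO arrays lay above all others. The log2 difference of KO from WT was 0.36 with SE 0.14 (95% interval 0.056 to 0.67) and did not pass (adjusted p = 0.124). In all, the KO and WT arrays of 4 of the 8 tested members did not overlap (Egr1, Egr2, Ier5 and Nab2), against 29.7% of all genes tested.

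Nr4a1, the receptor also called NUR77, gave 105, 79.6 and 100.1 in KO, 81.3, 107 and 69.0 in HET, and 96.5, 86.1 and 90.8 in WT. The groups overlapped and the log2 difference of KO from WT was 0.047 (95% interval -0.42 to 0.51, adjusted p = 0.925). That is an interval that leaves room for a change of either sign. Nr4a3, the receptor also called NOR1, gave 36.2, 59.7 and 26.3 in KO, 36.5, 18.5 and 50.0 in HET, and 37.0, 58.0 and 88.1 in WT on its kept probe set 1438796_at. Only 4 of these 9 signals reached the array's median, and the log2 difference was -0.55 (95% interval -1.48 to 0.38, adjusted p = 0.460). On its probe set 1421080_at the signals were 31.3, 20.8 and 24.0 in KO and 2.0, 17.8 and 2.2 in WT, all below the array medians, so no fold is given. Nr4a2, the receptor also called NURR1, had 6 probe sets of which none was kept. The brightest, 1450749_a_at, gave 33.2, 68.8 and 23.2 in KO, 19.9, 67.8 and 40.0 in HET, and 43.5, 36.4 and 40.7 in WT, and was not tested. Signals this low limit what the arrays can show for Nr4a2 and Nr4a3. The only Nr4a1 probe set was also dim, at percentile 57.3 of mean signal among all probe sets.

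Ier2 gave 48.6, 83.3 and 85.1 in KO, 76.3, 91.2 and 55.9 in HET, and 52.7, 75.9 and 62.6 in WT. The arrays of the 3 genotypes overlapped, and the log2 difference of KO from WT was 0.15 (95% interval -0.46 to 0.76, adjusted p = 0.797). Its only probe set was dim, at percentile 54.5 of mean signal among all probe sets. Across the 20 probe sets, 10 passed the filter and 7 were under the median of each of the 9 arrays. In the fit over kept probe sets, 3 of the 10 were called higher (Egr1 and both Ier5) and 2 lower (both Egr2), against 7.65% of all kept probe sets called in either direction, 3.96% higher and 3.69% lower. Probe sets of the same gene read the same RNA and are not separate members. The members were also chosen with earlier results of these data known, so these counts cannot be read as an excess.

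**Figure D2:**
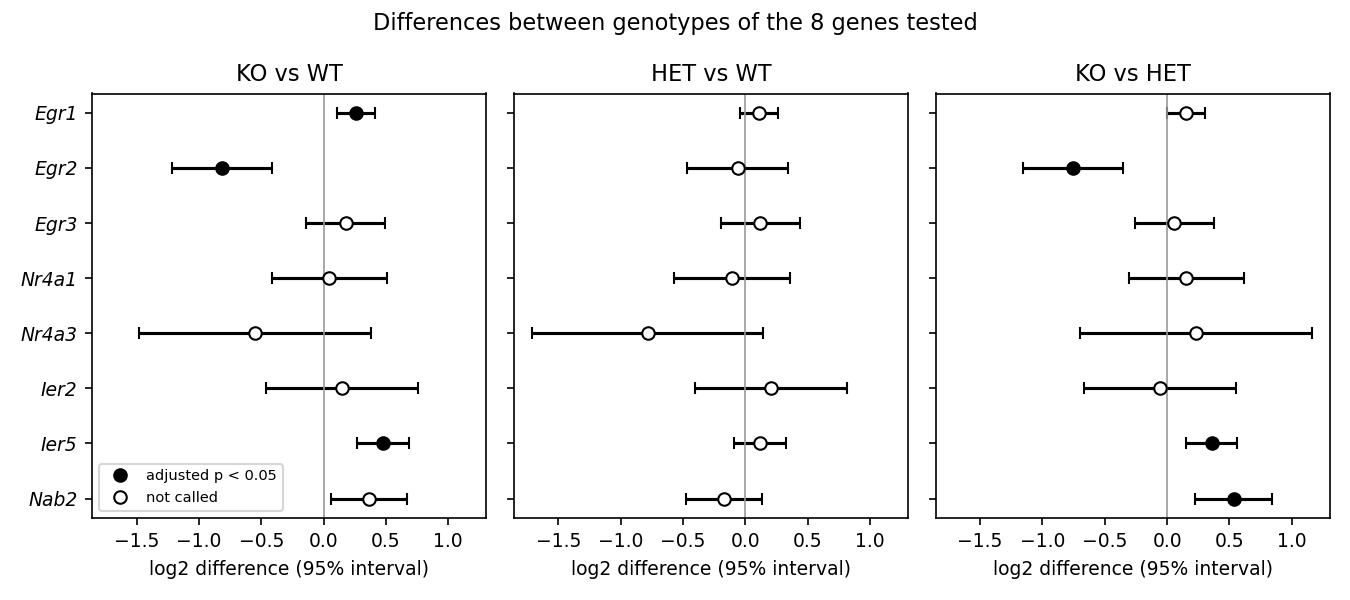
Log2 differences (points, x axis) with 95% intervals of the 8 tested members in KO vs WT, HET vs WT and KO vs HET, filled where called. In KO vs WT the Egr2 interval, -1.22 to -0.42, and the Ier5 interval, 0.27 to 0.68, lie on opposite sides of 0.

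**Figure D3:**
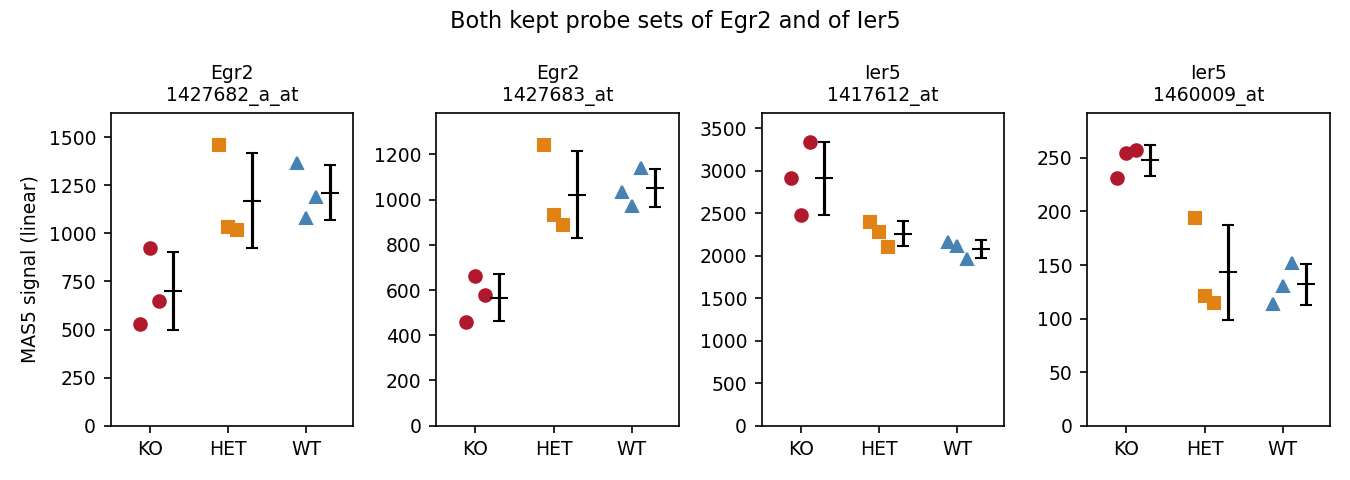
MAS5 signals (y axis, linear, from 0) of both kept probe sets of Egr2 and of Ier5 on each array, KO left, HET in the middle and WT right, with black bars for the mean ± SD of 3 arrays. Both Egr2 probe sets have all KO arrays below all HET and WT arrays, at 459 to 663 against 973 to 1141 in WT on 1427683_at, and both Ier5 probe sets have all KO arrays above them, at 231 to 258 against 114 to 152 in WT on 1460009_at.

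The comparison of HET with WT cells asks what happens with 1 floxed allele. None of the 8 tested members was called in limma's fit (0 also at an unadjusted p under 0.05), and of all genes tested 0.00968% were called, which is 1 gene, Gm34303 (outside the naming rule and named after its value was seen). The log2 difference of HET from WT was 0.11 for Egr1, -0.063 for Egr2 and 0.12 for Egr3 and for Ier5, and -0.17 for Nab2. The largest in size was Nr4a3 at -0.78, with an interval of -1.71 to 0.15. All 8 members' HET and WT arrays overlapped, against 9.84% of all genes without overlap.

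The comparison of KO with HET cells asks what differs between cells with both alleles floxed and cells with 1. Here 2 members were called higher, Ier5 and Nab2, and 1 lower, Egr2, and over all genes 9.01% were called, 4.56% higher and 4.45% lower (471 and 460 genes, or 293 and 1080 with arrays centred on their medians). Of the 8 tested members, these same 3 had KO and HET arrays that did not overlap, where 27.7% of all genes had none. With 8 members tested, 3 are few to set against that share. The Egr2 log2 difference was -0.76 (adjusted p = 0.0239), the Ier5 difference 0.36 (adjusted p = 0.0366) and the Nab2 difference 0.53 (adjusted p = 0.0339). The Egr1 difference, 0.15, did not pass (adjusted p = 0.222). In the fit over kept probe sets, 1 was higher (Ier5, 1460009_at, 0.82) and 2 were lower (both Egr2, -0.76 and -0.85), against 5.58% of all kept probe sets, 2.78% higher and 2.79% lower. Both Egr2 probe sets read the same gene, so these counts too cannot be read as an excess. These calls share the KO arrays with the comparison against WT. They were lost in 5, 10 and 11 of 23 settings for Egr2, Ier5 and Nab2. Egr2 was not called without KO array 1, KO array 3 or HET array 1 (adjusted p = 0.0819, 0.0629 and 0.0850). Ier5 was not called without KO array 1, KO array 3, HET array 2, HET array 3 or WT array 2 (adjusted p = 0.0889, 0.104, 0.0883, 0.122 and 0.0559). Nab2 was not called without KO array 2, KO array 3, HET array 1, HET array 3 or WT array 2 (adjusted p = 0.107, 0.0785, 0.0518, 0.111 and 0.0513).

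In order of mean signal, Egr2 was lowest in KO at 702 ± 203, with HET at 1171 ± 249 and WT at 1211 ± 143 (SD, n = 3 each), and HET and WT did not differ beyond their spread. Ier5 averaged 2911 ± 429 in KO, 2260.0 ± 147 in HET and 2082 ± 104 in WT, and HET and WT overlapped. Egr1 averaged 4206 ± 253 in KO, 3784 ± 221 in HET and 3513 ± 275 in WT, where neither neighbouring pair was called. Nab2 averaged 411 ± 32.2 in KO, 286 ± 51.9 in HET and 319 ± 15.1 in WT.

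Of the other immediate early genes, 55 were listed and 46 tested, and in KO against WT 2 were called higher, 6 lower and 38 did not pass. That is 17.4% called, against 11.9% of all genes (6.09% higher and 5.85% lower), and centring arrays on their medians gave 2 higher and 13 lower. This list and those below were chosen with earlier results of these data known, so their shares cannot be read as an excess over all genes. The median of the list was -0.034, against 0.011 over all genes. Dusp6, a phosphatase of ERK, averaged 607 ± 83.4 in KO, 1041 in HET and 1341 ± 14.9 in WT, with a log2 difference of KO from WT of -1.15 (adjusted p = 1.52e-05). Dusp4, a nuclear phosphatase of MAP kinases, averaged 93.4 ± 39.0 in KO, 233 in HET and 300 ± 52.6 in WT, a log2 difference of -1.72 (adjusted p = 6.57e-04). Both phosphatases were lower in KO, as Egr2 was. The Dusp1, Dusp2 and Dusp5 genes of the same list gave 0.014, 0.090 and 0.0014 and did not pass (outside the naming rule and named after their values were seen). The kinase gene Pim1 fell by 0.35 on the log2 scale, Csrnp1 by 0.41 and the antiproliferative gene Btg2 by 0.61. The kinase gene Plk2 averaged 23.2 ± 11.4 in KO, 63.6 in HET and 80.3 ± 32.2 in WT. All 3 Plk2 signals of KO lay below the array medians, so Plk2 passed the filter only through HET and WT arrays. With the array medians as the floor it was at least 1.57-fold lower in KO than in WT. Its adjusted p in limma's fit, 0.0257, comes from the signals without that floor, and the floored difference was not tested. Tnf, an inflammatory cytokine, rose by 0.78 and Ptger4, a prostaglandin E receptor, by 0.39. Without WT array 2, Tnf, Ptger4 and Csrnp1 were no longer called (adjusted p = 0.0525, 0.0529 and 0.0564). Btg2 was not called without KO array 1, KO array 2, WT array 1 or WT array 2 (adjusted p = 0.0689, 0.0713, 0.0696 and 0.0641), and Plk2 was not called without KO array 2, WT array 1 or WT array 3 (adjusted p = 0.0870, 0.0995 and 0.0753).

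The signal path from the antigen receptor to the EGR and NR4A genes gave 7 called higher, 1 lower and 29 not passing of 37 tested, with a list median of 0.079 against 0.011 over all genes. That is 21.6% called, against 11.9% of all genes, for a list also chosen with earlier results of these data known. With arrays centred on their medians, 0 were called higher and 3 lower, and the list median was -0.041 against -0.11 over all genes. Leaving out 1 array gave between 2 and 6 called higher, with 2 without KO array 2, WT array 1 or WT array 2, 3 without KO array 1 or WT array 3, and 4 without KO array 3. Rasgrp3, a Ras activator downstream of the B cell receptor, was higher in KO by 0.23 on the log2 scale, Plcg2, the phospholipase of the receptor, by 0.22, and the kinase gene Araf by 0.39. None of the 7 higher calls was made with centred arrays, where these 3 had adjusted p values of 0.168, 0.263 and 0.0578. With its kept probe sets averaged, Araf gave 0.19 and was not called (adjusted p = 0.176). Nfatc1, the calcium-responsive transcription factor, was lower in KO by a log2 difference of -0.40 (adjusted p = 0.0122), with averages of 3264 in KO, 3742 in HET and 4283 in WT. Leaving out KO array 1, KO array 3 or WT array 1 ended the Plcg2 call (adjusted p = 0.0688, 0.0660 and 0.0825), leaving out KO array 2 or WT array 2 ended that of Araf (adjusted p = 0.0526 and 0.0635), and leaving out WT array 3 ended that of Nfatc1 (adjusted p = 0.0514).

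Genes reported as EGR targets in lymphocytes had 3 called higher, 3 lower and 7 not passing of 13 tested, which is 46.2% called against 11.9% of all genes. These 13 are few, and the list was chosen with earlier results of these data known, so the share cannot be read as an excess. Centring arrays on their medians gave 2 higher and 6 lower. Id2, an inhibitor of E proteins, averaged 1623 ± 138 in KO, 633 in HET and 681 ± 85.7 in WT, a log2 difference of KO from WT of 1.25 (adjusted p = 1.18e-05). Dgka, a diacylglycerol kinase, was lower at -0.56, Batf, an AP-1 family factor, lower at -1.32, and Cblb, an E3 ubiquitin ligase, higher at 0.35. Cdkn1a tied with Cblb in adjusted p (0.00868) and was higher at 1.09. Nrgn (outside the naming rule and named after its value was seen) was lower at -0.72 (adjusted p = 0.0334). Cblb was not called with arrays centred on the median (adjusted p = 0.0571). The list thus holds called genes in both directions, and its median was -0.11 against 0.011 over all genes. Genes reported as restrained by NR4A receptors in B cells, in a list that shares Batf, had 2 higher, 1 lower and 2 not passing of 5 tested, too few genes to read against the 11.9% of all genes. Irf4, a factor of activated B cells and plasma cells, was higher in KO at 0.61, and Cd86, a costimulatory ligand, at 0.41. Myc, a growth regulator, gave a difference of 0.17 and did not pass (adjusted p = 0.305).

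Of the partners of EGR and NR4A proteins, 4 of 9 were tested and 1 was called, too few to set against the 11.9% of all genes. Chd3, a subunit of the NuRD complex, averaged 528 ± 7.88 in KO, 300 in HET and 266 ± 75.8 in WT, a log2 difference of 1.03 (adjusted p = 0.00346). Nab1, a second EGR corepressor, Rxrb, a partner receptor of NR4A proteins, and Chd4 gave -0.26, 0.13 and -0.047 and did not pass. Heat shock and stress genes, listed because of the role reported for IER5, had 1 called lower and 14 not passing of 15 tested. That is 6.67% called, against 11.9% of all genes. The called gene was Trib3, a stress-induced pseudokinase, at -0.91 (adjusted p = 0.0188), not called without KO array 3, WT array 1 or WT array 3 (adjusted p = 0.0535, 0.0689 and 0.0707). The genes Hspd1, Txnip and Ddit4 gave -0.16, 0.18 and 0.30 and did not pass. In HET against WT, none of the tested genes in these lists was called.

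**Figure D4:**
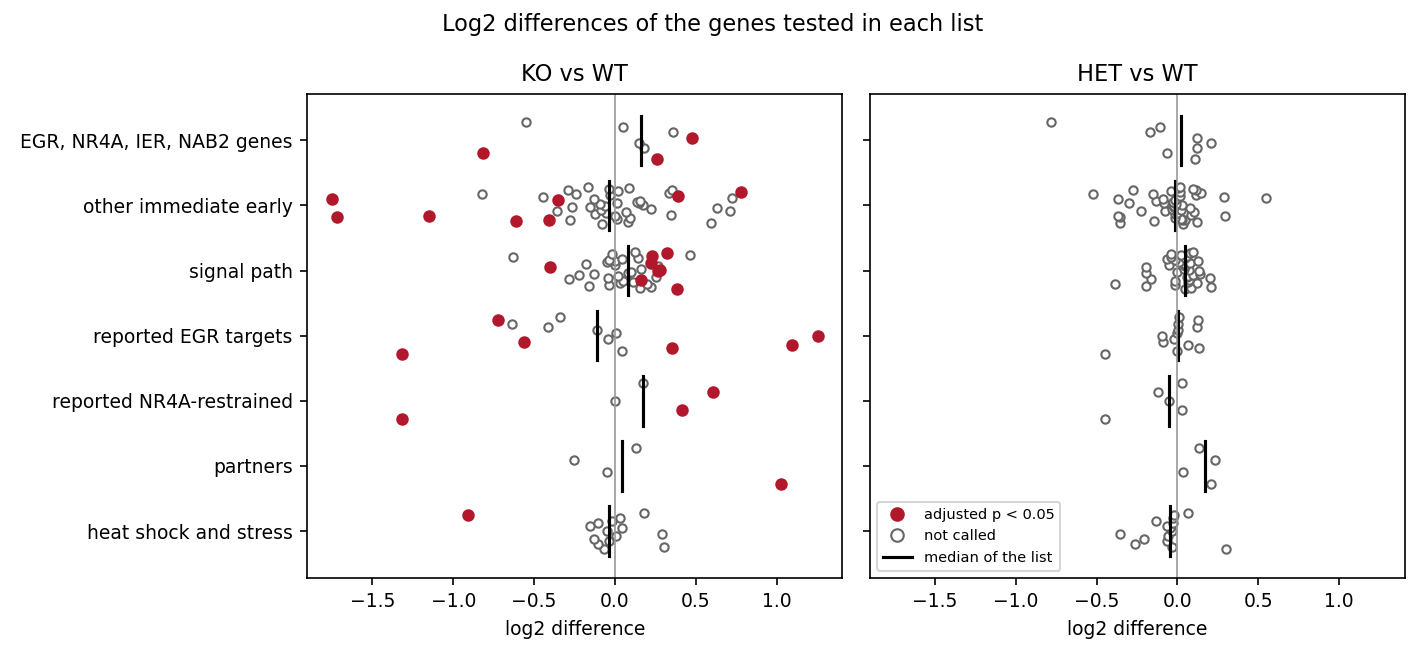
Log2 differences (x axis) of the tested genes of each list in KO vs WT (left) and HET vs WT (right), filled where called, with a bar at the list median. In HET vs WT no gene is filled, and in KO vs WT the other immediate early genes have 6 called lower and 2 called higher.

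The summed signals of myeloid, plasma cell and T cell markers were higher on every KO array than on every HET and WT array. The dendritic cell sums of KO overlapped those of HET, and the NK cell and the erythroid and platelet sums overlapped among all genotypes. The summed signal of 16 myeloid markers lay between 3522 and 4806 on KO arrays, between 1851 and 3399 on HET arrays, and between 1361 and 2346 on WT arrays. Over all genes tested, 6.09% were called higher in KO than in WT, and each marker list here has few tested genes. Of the myeloid markers, 5 of 9 tested (Cd68, Lyz2, Mpeg1, Csf1r and Lyz1) were called higher in KO than in WT. Of these, Cd68 kept its call whichever array was left out, while the adjusted p of the other 4 reached 0.0614 for Lyz2, 0.137 for Mpeg1 and 0.154 for Csf1r without WT array 3, and 0.147 for Lyz1. With its kept probe sets averaged, Csf1r gave 1.26 and was not called (adjusted p = 0.0936). HET array 3 held the highest HET sum. Itgam, Cd14, Fcgr1, Cd163, C1qa and C1qc stayed under every array's median. Plasma cell markers summed to between 29986 and 32988 in KO, between 25901 and 28247 in HET and between 25808 and 26786 in WT, with Slpi, Irf4, Prdm1 and Sdc1 called higher of 7 tested. The other 3, Mzb1, Jchain and Xbp1, gave log2 differences of KO from WT of -0.086, -0.057 and -0.051 and did not pass. Slpi averaged 8493 in KO and 3940 in WT, Irf4 averaged 4794 in KO and 3145 in WT, and the immunoglobulin joining chain gene Jchain averaged 10539 in KO and 10958 in WT. Sdc1 was not called without KO array 2 (adjusted p = 0.0510) or with its kept probe sets averaged (adjusted p = 0.0982). Dendritic cell markers summed to between 1466 and 1852 in KO, 1479 and 1529 in HET, and 1180 and 1374 in WT, with Sirpa called of 3 tested. T cell markers summed to between 2469 and 2654 in KO, 1949 and 2092 in HET, and 1926 and 2080 in WT, of which Cxcr5, also expressed by B cells, was called, while Cd3d, Cd3g and Cd4 were among 9 of 12 markers below the median on all arrays. The germinal center and B cell markers overlapped between genotypes in their sum, at 55036 to 56560 in KO, 54337 to 55235 in HET and 52770 to 58526 in WT. Of the 8 tested, Fas alone was called, higher in KO. NK cell markers summed to between 341 and 524 in KO, 362 and 425 in HET, and 274 and 397 in WT, and erythroid and platelet markers to at most 155 on any array, with none called. The part of these markers in the EGR, NR4A and IER signals was not tested.

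The genes whose signals tracked Egr1 most closely over the 9 arrays, among 9795 genes searched, were Arhgef10, Atp8a1, Tmem198, Dnajc16 and Hypk, with Pearson r of 0.950, 0.937, 0.936, 0.925 and 0.921. For Nr4a1 they were Tom1l2, Ube4a, Hnrnpa2b1, Kif2c and Arntl, at 0.885, 0.878, 0.872, 0.871 and 0.859. These values describe 9 arrays in 3 genotypes, with arrays of a genotype sharing its mean, and the highest of many r values is high by selection.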

How the data were processed

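Expression was measured on 9 Affymetrix Mouse 430.2 arrays, 3 per genotype. The deposited values are signal intensities, one per probe set, made by the authors. The submitters' processing notes name MAS5, and a 2% trimmed mean of 500 on every array was found. Gene symbols came from GEO's platform annotation: of 45101 probe sets, 64 were controls, 34945 had 1 symbol, 932 several and 9160 none, and 34741 matched RefSeq, with 0 symbols changed. The log2 of the deposited intensity plus 2.09 (the 10th percentile of all signals) was fitted with limma 3.58.1 in R 4.3.3 (lmFit, eBayes with a variance trend, all 9 arrays, no covariate). A probe set was kept at or above its array's median on at least 3 arrays, and the brightest kept probe set by mean stood for its gene. Adjusted p values are Benjamini-Hochberg over all 10331 genes, two-sided. On simulated data for KO against WT (10331 genes, 200 changed), the fit called 87% of genes changed by 1 on the log2 scale, 58% of those changed by 0.6, and 0.079% of the rest. Precision is limited by the number of arrays, and p values measure the spread between them. Genes named are all members, from each list the 4 tested genes of lowest adjusted p in KO against WT (8 for the other immediate early genes), and for Egr1 and Nr4a1 the 5 genes most correlated with each, and markers of other cell types. The members and lists were chosen with earlier results of these data known. Alternatives covered the offset, array scaling, filter, probe set choice, variance model, array weights, samples in the fit, an Xist block (arrays with high or low Xist, both found in each genotype) and leaving out each array.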

Additional observations from a re-analysis of the deposited data

How the results depend on the processing

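With 3 arrays a genotype, small differences and dim probe sets are the limit here. No paired analysis was possible because the numbers in the sample titles are not shared between genotypes. Ier5 in KO against WT kept its direction and call in all 23 settings. Centring arrays on their medians moved the median of all genes in KO against WT to -0.11 (0.011 in the values reported), called 398 genes higher and 1683 lower, and gave 293 and 1080 in KO against HET, with members higher at 1 against WT and 0 against HET. Without the variance trend KO against HET had 302 genes lower, and members higher were 1 against WT and 0 against HET, and lower 0 in both. Quantile normalization left 1 member higher against HET. Without a filter 1 was higher against WT and 0 against HET. Fits of only the 2 genotypes compared gave 0 members higher and 0 lower against HET and 2 genes lower in HET against WT. With p values adjusted over all kept probe sets, 0 members were higher against HET on their brightest probe set. Robust eBayes and array weights called 3 genes higher in HET against WT. Member probe sets in KO against HET (1 higher and 2 lower as reported) ranged from 0 to 3 higher and 1 to 2 lower, and in KO against WT (3 and 2) they came to 1 higher and 1 lower without the variance trend and 1 lower without shared-suffix probe sets.

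Signs turned for uncalled genes: Nr4a1 in KO against WT was -0.075 with quantile normalization and -0.073 with centring, Egr3 in KO against HET was -0.040 with centring and -6.0e-04 with the Xist block, and with that block Nr4a3 was -0.055 and Ier2 0.0092 in KO against HET. Leaving out each array gave 381 to 597 genes higher and 367 to 583 lower in KO against WT, 260 to 433 and 283 to 460 in KO against HET, and 1 to 3 and 0 to 1 in HET against WT. Members higher were 1 to 2 against WT and 0 to 2 against HET, with 0 to 1 lower against HET, and member probe sets were 1 to 2 higher and 1 to 2 lower against WT, and 0 to 1 and 1 to 2 against HET. Over those repeats Nr4a1 in KO against WT ran from -0.028 to 0.17, Rxrb from -0.015 to 0.23 and Chd4 from -0.17 to 0.053. In HET against WT, Egr2 ran from -0.23 to 0.027 and Nr4a1 from -0.27 to 0.032. In KO against HET, Egr3 ran from -0.10 to 0.25, Nr4a3 from -0.14 to 0.53 and Ier2 from -0.24 to 0.20. The causes were not tested. Counting each list, comparison and direction under each of 23 settings, 762 list counts were within 1.5 times the reported count and 66 were not. That tally includes HET against WT, where no listed gene was called in the values reported. It therefore says less about how steady the KO counts were. In KO against WT, the signal path list had 4 higher without a filter or with probe sets averaged and 0 lower without the variance trend, and the heat shock list had 2 lower with centring and 0 lower without shared-suffix probe sets. Leaving out each array gave 0 to 3 higher and 4 to 8 lower for the other immediate early genes, 0 to 2 lower for the signal path, and 0 to 1 higher and 0 to 1 lower for heat shock genes.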
